A study of Mus musculus with 8 samples.

Results

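The transcription factor gene Klf10 and its paralogue Klf11 were followed across 8 RNA-seq libraries of iWAT, the inguinal white fat depot that lies under the skin of the groin in mice. They were taken by symbol from the authors' gene table, where each symbol has a single entry, and are 2 of its 54532 genes. The 4 libraries named KLF10AKO came from HFD-fed males (a high-fat diet) whose adipocytes were made to lack KLF10, and the 4 wild type (WT) libraries from HFD-fed males without that knockout. The comparison asks how the fat pad's RNA differs when adipocytes lose KLF10. The sources used here do not give the promoter that drove the deletion, the part of the gene removed, the age of the mice or the number of animals behind a library.

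KLF10 and KLF11, also called the TGF-beta-inducible early genes, are zinc-finger proteins of the Krüppel-like factor (KLF) family that bind GC-rich promoter sites. Transforming growth factor beta (TGF-β) switches both genes on quickly, and both proteins recruit the SIN3 corepressor with its histone deacetylases through a short amino-terminal motif. KLF10 is known in liver as a clock-controlled brake on glucose production and in T cells as a factor of Foxp3 control, and KLF11 has been linked to browning in human fat cells.

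Klf10 (ENSMUSG00000037465) lies on mm10 chromosome 15 at 38291463 to 38300706 on the minus strand, with 4179 annotated exon bases in 6 transcripts. Klf11 (ENSMUSG00000020653) lies on chromosome 12 at 24651274 to 24662789 on the plus strand, with 4340 exon bases in 4 transcripts. No other annotated gene overlaps the exons of either. The ungapped coding stretch of this fixed length with the most identical bases, in the zinc-finger region, is shown because it decides whether reads of the paralogues can be told apart. It spans coding bases 1129 to 1371 of Klf10 and 1177 to 1419 of Klf11, and crosses an exon junction in both. Capitals mark bases that are identical in the paralogues, and the sequences are those of the GENCODE M21 transcripts (GRCm38, the same assembly as mm10), 5′ to 3′.
Klf10: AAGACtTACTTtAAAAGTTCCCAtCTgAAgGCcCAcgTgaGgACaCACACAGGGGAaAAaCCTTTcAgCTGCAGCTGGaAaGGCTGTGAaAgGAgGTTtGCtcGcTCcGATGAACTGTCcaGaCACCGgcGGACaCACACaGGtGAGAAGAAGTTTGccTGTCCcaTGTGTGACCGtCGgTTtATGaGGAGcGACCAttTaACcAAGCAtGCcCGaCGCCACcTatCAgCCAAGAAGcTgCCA
Klf11: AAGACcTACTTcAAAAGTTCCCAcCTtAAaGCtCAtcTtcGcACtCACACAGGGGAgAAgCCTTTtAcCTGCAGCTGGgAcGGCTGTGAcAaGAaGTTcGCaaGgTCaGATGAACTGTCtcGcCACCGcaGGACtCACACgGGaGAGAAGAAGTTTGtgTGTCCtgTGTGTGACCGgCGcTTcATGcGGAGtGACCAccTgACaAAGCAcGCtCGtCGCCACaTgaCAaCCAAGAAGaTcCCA
Of these 243 bases 187 (77.0%) are identical, while the coding sequence before them is 52.5% identical over 1258 aligned columns. The longest run shared by any Klf10 and Klf11 transcripts has 13 bases.
Longest shared run: GAGAAGAAGTTTG
It lies inside the stretch, at chr15:38296060-38296072 on the minus strand. Of the 3020 words of 25 bases in the longest coding Klf10 transcript, 0 occur in a Klf11 transcript, so a read of that length without mismatches belongs to 1 paralogue alone.

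Values are FPKM as deposited, read counts divided by the length of the gene and by a library size that the authors had adjusted between libraries. Between 15900731 and 17396282 reads per KLF10AKO library and between 15537863 and 17499132 per WT library could be recovered from them. Marker genes of several cell types differed between the groups. All 12 adipocyte markers were present in every library and lower in KLF10AKO, where they summed to 5297 to 6645 FPKM, against 15869 to 17824 FPKM in WT. All 5 B cell markers rose, to 907 to 1351 FPKM in KLF10AKO, against 2.42 to 3.11 FPKM in WT, and all 5 T cell markers rose, to 120 to 182 FPKM against 0.641 to 1.83 FPKM in WT. Of 5 skeletal muscle markers 4 rose. The 5 summed to 3883, 2935 and 6820 FPKM in KLF10AKO replicates 1 to 3, to 25.9 FPKM in KLF10AKO replicate 4 and to 161 to 213 FPKM in WT. Nearly all of the WT sum was Acta1, at 160 to 213 FPKM, which stood at 20.9 FPKM in KLF10AKO replicate 4. In that library Ckm (0.0389 FPKM) and Myh4 (0.00942 FPKM) were not above the WT range, so their rises rest on KLF10AKO replicates 1 to 3. Lymph node stroma markers rose in 3 of 3 tested genes (114 to 348 FPKM in KLF10AKO, 0.659 to 0.765 FPKM in WT), with Ccl19 and Ccl21a at 0 in all WT libraries. Trophoblast markers fell in 3 of 3 tested genes (0 to 0.0520 FPKM in KLF10AKO, 17.6 to 43.8 FPKM in WT), with Prl3b1, Prl8a9 and Tpbpa at 0 in all KLF10AKO libraries. The filter on low values was a mean of at least 0.5 FPKM over the 8 libraries. Ccl21a and Madcam1 passed it only through KLF10AKO, as did some B cell, T cell and muscle markers. Prl3b1, Prl8a9 and Tpbpa passed it only through WT. The direction of such genes was therefore fixed by the filter. Over all genes tested, 39.4% were called higher and 34.9% lower. The mice were male, and the source of the trophoblast transcripts was not tested. These marker shifts move with every difference below, and their part in it was not tested. In whole tissue, fewer cells of a type and less RNA per cell cannot be told apart.

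Klf10 was lower in KLF10AKO iWAT than in WT iWAT but was read throughout. Its level was 9.39, 9.68, 9.75 and 9.59 FPKM in KLF10AKO replicates 1 to 4, from 744, 768, 739 and 707 reads. In WT replicates 1 to 4 it was 16.7, 18.2, 16.7 and 21.1 FPKM, from 1042, 1263, 1049 and 1297 reads. The groups did not overlap, and the highest KLF10AKO library lay far below the lowest WT library. Means were 9.60 ± 0.157 FPKM in KLF10AKO and 18.2 ± 2.09 FPKM in WT (SD, n = 4 each), a difference of -8.58 FPKM. Set against the WT mean, the KLF10AKO libraries kept 51.6%, 53.3%, 53.6% and 52.7% of the Klf10 level, 52.8% ± 0.865 on average (SD, n = 4). On the log2(FPKM + 0.5) scale the change was -0.88 (standard error 0.0781, 95% interval -1.06 to -0.70, limma adjusted p = 8.96e-06), or 0.543-fold (0.480 to 0.614). An exact two-sided permutation test of the 8 values gave p = 0.0286, the smallest that 4 against 4 can give. Of the 2 genes Klf10 alone was called, as lower, while 74.3% of the 16012 genes tested were called in the same fit and 34.9% were called lower. With KLF10AKO replicate 4 alone, the library with few muscle transcripts, the log2 change was -0.88 (limma adjusted p = 0.00864). Each value pools the whole gene, so a removed exon was not read by itself, and a transcript without it could still be counted.

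The coefficient of variation of Klf10 was 1.64% over the 4 KLF10AKO libraries, where counting error alone gives 3.68%, and 11.5% over the 4 WT libraries, where it gives 2.94%. The WT value rests on WT replicate 4, without which it was 4.92%, a comparison chosen after the data were seen. The exact 95% Poisson interval of WT replicate 4, 20.0 to 22.3 FPKM, lay clear of that of WT replicate 1, 15.7 to 17.7 FPKM. Intervals of this kind cover counting error only.

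**Figure D1:**
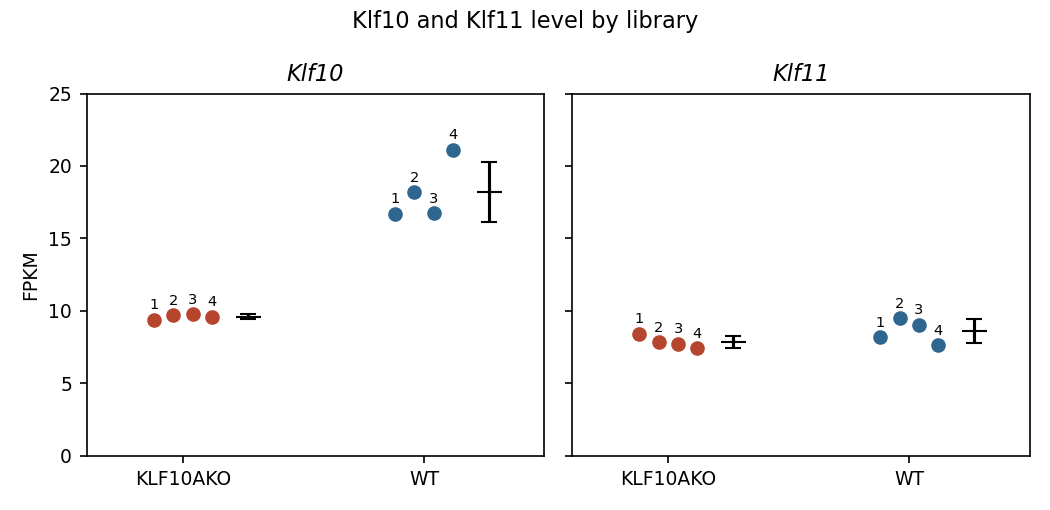
FPKM of Klf10 (left) and Klf11 (right) in each library, KLF10AKO and WT side by side, numbered by replicate, with the mean and SD (n = 4) as a bar beside the points. The 4 KLF10AKO values of Klf10 lie between 9.39 and 9.75 FPKM, below all WT values, while the groups overlap for Klf11.

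Klf11 did not differ detectably. Its level was 8.42, 7.83, 7.72 and 7.42 FPKM in KLF10AKO replicates 1 to 4 and 8.19, 9.49, 9.03 and 7.62 FPKM in WT replicates 1 to 4. The groups overlapped, with WT replicate 4 below 3 of the 4 KLF10AKO libraries. The means were 7.85 ± 0.421 FPKM in KLF10AKO and 8.58 ± 0.835 FPKM in WT (SD, n = 4 each). The log2 change was -0.12 (standard error 0.0773, 95% interval -0.29 to 0.057, limma adjusted p = 0.192), or 0.921-fold (0.815 to 1.04), and the exact two-sided permutation p was 0.229. With KLF10AKO replicate 4 alone the log2 change was -0.19 (limma adjusted p = 0.273). Read as a bound, the interval over all 8 libraries ends at a 1.04-fold increase on the authors' scaling. The sign depended on the scaling. It turned to 0.082 with TPM (95% interval -0.20 to 0.36, limma adjusted p = 0.576) and to 0.094 with voom on the recovered reads (95% interval -0.094 to 0.28, adjusted p = 0.337). With quantile normalization Klf11 was called lower, at -0.29 (limma adjusted p = 0.00685). The median log2 change over all genes was itself shifted by 0.20 with TPM, by 0.22 with voom and by -0.20 with quantile normalization. Measured from the median of all genes, the Klf11 change was -0.17 on the authors' scaling, -0.17 with TPM, -0.18 with voom and -0.13 with quantile normalization. The Klf10 change measured in that way was -0.93, -0.94, -0.96 and -0.84 in the same order.

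Among all genes tested, the Klf10 change was of an ordinary size. Of the 16012 genes, 2409 (15.0%) had a lower log2 change than Klf10, and 64.6% had a smaller change in either direction. For Klf11 those shares were 42.4% and 10.7%. Adipoq and Plin4 lay further out. Adipoq, which encodes the adipocyte hormone adiponectin, stood at 585, 575, 672 and 464 FPKM in KLF10AKO and at 1956, 2096, 2136 and 1811 FPKM in WT, a log2 change of -1.81 (standard error 0.131, limma adjusted p = 2.49e-06). Plin4, which encodes a lipid droplet coat protein, stood at 302, 275, 316 and 264 FPKM in KLF10AKO and at 955, 892, 889 and 1011 FPKM in WT, a log2 change of -1.70 (standard error 0.0906, limma adjusted p = 4.41e-07). Both were lower in all 4 KLF10AKO libraries, which held 28.7% and 30.9% of the WT mean of Adipoq and Plin4, a smaller remainder than that of Klf10. By rank among the genes tested, counted from the highest FPKM, Klf10 lay between 5180 and 5385 in the KLF10AKO libraries and between 2369 and 3018 in the WT libraries.

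**Figure D2:**
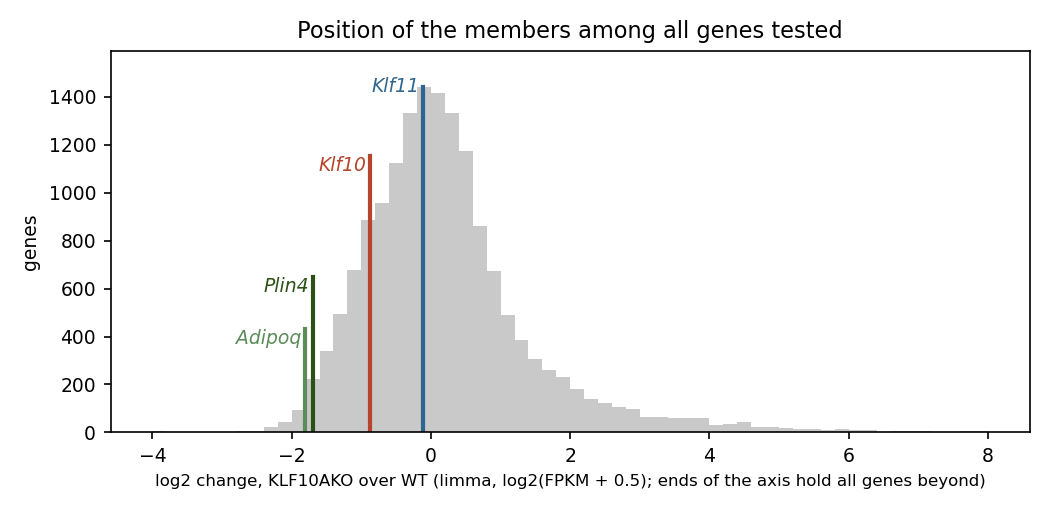
Histogram of the log2 change (KLF10AKO over WT, limma on log2(FPKM + 0.5)) of the 16012 genes tested, with the changes of Klf10 (-0.88), Klf11 (-0.12), Adipoq (-1.81) and Plin4 (-1.70) as lines whose heights carry no value. Klf10 lies to the left of the median of 0.047 and to the right of both adipocyte genes.

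The balance between the paralogues shifted. The ratio of Klf10 FPKM to Klf11 FPKM was 1.12, 1.24, 1.26 and 1.29 in KLF10AKO and 2.04, 1.91, 1.85 and 2.77 in WT. Klf10 thus stayed the higher of the pair in all 8 libraries, with no overlap of the ratio between the groups. The log2 ratio averaged 0.29 ± 0.0940 in KLF10AKO and 1.08 ± 0.266 in WT (SD, n = 4 each), a difference of -0.79, or 0.579-fold. The exact two-sided permutation p was 0.0286, raw and after Benjamini-Hochberg adjustment over the 8 ratios and sums tested, so the changes of the 2 genes differed. Of all genes tested, 26.3% had 4 KLF10AKO ratios to Klf11 below all 4 WT ratios.

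The summed level of the pair was lower in KLF10AKO, with no detectable rise of Klf11 beside the fall of Klf10. The summed FPKM of the pair was 17.8, 17.5, 17.5 and 17.0 in KLF10AKO and 24.9, 27.7, 25.8 and 28.8 in WT. The groups were apart in every library, at 17.5 ± 0.334 FPKM in KLF10AKO and 26.8 ± 1.76 FPKM in WT (SD, n = 4 each). The difference was -9.31 FPKM, or 0.652-fold (exact two-sided permutation p = 0.0286, adjusted 0.0286). As a plain level, FPKM below those of all 4 WT libraries in all 4 KLF10AKO libraries was met by 33.0% of the genes tested.

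Set against adipocyte RNA, both genes were higher in KLF10AKO. For each library the log2 FPKM of the gene was taken minus the mean log2 FPKM of the 12 adipocyte markers, which needs no scaling between libraries. For Klf10 it was -4.90, -4.82, -5.03 and -4.66 in KLF10AKO and -5.73, -5.63, -5.76 and -5.34 in WT. The difference was 0.76, or 1.70-fold, with no overlap (exact two-sided permutation p = 0.0286, adjusted 0.0286). For Klf11 it was -5.06, -5.13, -5.37 and -5.03 in KLF10AKO and -6.76, -6.57, -6.65 and -6.81 in WT. The difference was 1.55, or 2.93-fold, again with no overlap (exact two-sided permutation p = 0.0286, adjusted 0.0286). This is the common pattern, as 85.2% of the genes tested had all 4 KLF10AKO values above all 4 WT values on that measure, against 1.02% with all below. A rise of this kind is therefore near the background of all genes, and the markers' own fall is its denominator.

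**Figure D3:**
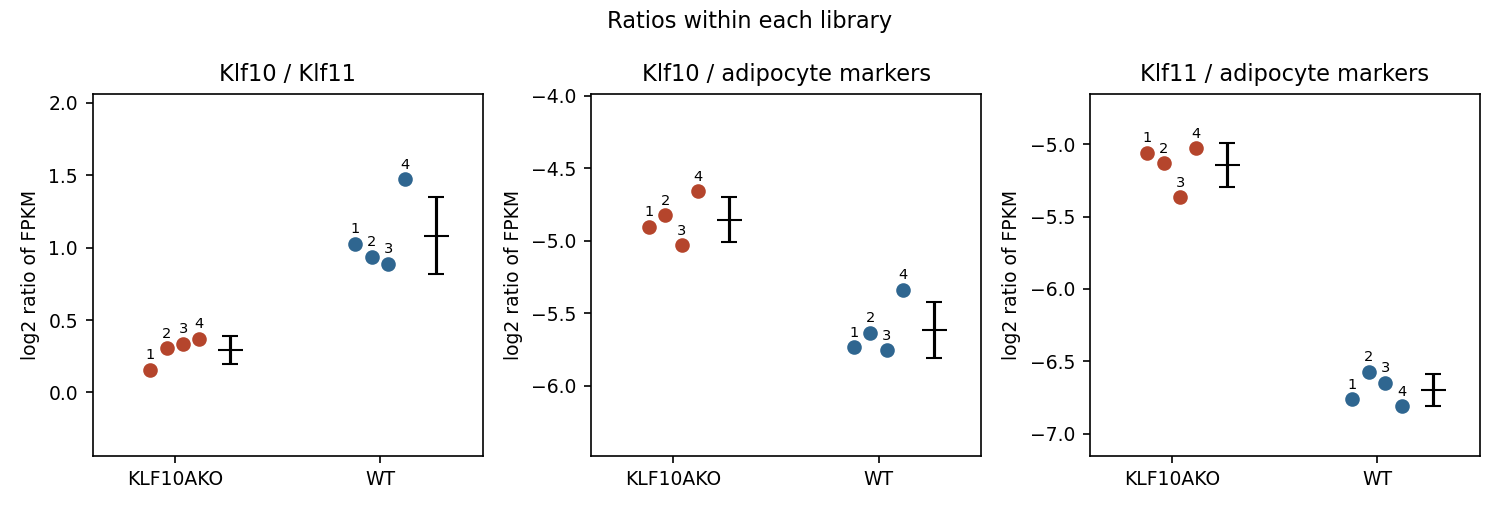
Log2 ratios within each library for Klf10 over Klf11 (left), Klf10 over the mean of 12 adipocyte markers (middle) and Klf11 over the same markers (right), numbered by replicate, with the mean and SD (n = 4) beside the points. KLF10AKO lies below WT for Klf10 over Klf11 (0.29 and 1.08 on average) and above WT for both ratios to the markers, and the 3 panels span the same number of log2 units.

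With the single markers the outcome was alike. Per 1000 FPKM of Adipoq there were 16.1, 16.8, 14.5 and 20.7 FPKM of Klf10 in KLF10AKO, against 8.53, 8.67, 7.83 and 11.7 in WT, a log2 difference of 0.90, or 1.86-fold. For Klf11 there were 14.4, 13.6, 11.5 and 16.0 FPKM in KLF10AKO, against 4.19, 4.53, 4.23 and 4.21 in WT, a log2 difference of 1.68, or 3.21-fold. Neither ratio overlapped between the groups (exact two-sided permutation p = 0.0286 each, adjusted 0.0286), and 86.9% of the genes tested were above WT in this way. Per 1000 FPKM of Plin4 there were 31.1, 35.2, 30.9 and 36.3 FPKM of Klf10 in KLF10AKO, against 17.5, 20.4, 18.8 and 20.9 in WT, a log2 difference of 0.78, or 1.72-fold. Klf11 gave 27.9, 28.5, 24.5 and 28.1 in KLF10AKO, against 8.58, 10.6, 10.2 and 7.54 in WT, a log2 difference of 1.57, or 2.97-fold. Both were without overlap (exact two-sided permutation p = 0.0286 each, adjusted 0.0286), a state met by 85.3% of the genes tested. Plin4 shares annotated exon bases with Hdgfl2, so its reads are uncertain to that extent. Marker by marker, the Klf11 ratio was higher in KLF10AKO without overlap for 12 of 12 adipocyte genes, by 0.37 (Cfd) to 1.84 (Pparg) on the log2 scale. The Klf10 ratio was higher for 11 of 12, by up to 1.05 (Pparg). The exception was Cfd, the adipocyte serine protease adipsin, against which Klf10 was lower, at -0.42, chosen after its value was seen.

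Klf10 and Klf11 belong to a group of KLF proteins that recruit SIN3, with Klf9, Klf13, Klf14 and Klf16. Of the 6 genes, 2 rose, 3 fell and Klf11 did not pass, against 39.4% of all genes tested called higher and 34.9% called lower. The median log2 change was -0.50, against 0.047 over all genes. The middle genes of the 6 are Klf10 and Klf11 themselves, so this median only restates their 2 changes. Klf9, a glucocorticoid-induced factor, fell to 13.2, 13.4, 16.2 and 10.2 FPKM in KLF10AKO, against 47.2, 46.2, 42.0 and 50.2 FPKM in WT (log2 change -1.79, limma adjusted p = 2.02e-06). Klf14, a factor known from human genetics of adipose gene expression, fell to 1.26 ± 0.334 FPKM in KLF10AKO, against 3.96 ± 0.713 FPKM in WT (SD, n = 4 each, log2 change -1.35, limma adjusted p = 7.16e-05). The groups were apart for both genes. Klf16 rose to 9.07, 10.3, 8.37 and 9.26 FPKM in KLF10AKO, against 6.06, 6.21, 6.48 and 6.03 FPKM in WT (log2 change 0.54, limma adjusted p = 9.05e-05). Klf13, which acts in T cell chemokine expression, stood at 17.5, 19.3, 16.1 and 20.7 FPKM in KLF10AKO and at 13.8, 14.1, 13.9 and 17.0 FPKM in WT. It passed at 0.31 (limma adjusted p = 0.0161), with KLF10AKO replicate 3 below WT replicate 4, and did not pass with quantile normalization (0.23, limma adjusted p = 0.0641). B and T cell markers were higher in the same KLF10AKO libraries, and their part in the 2 rises was not tested.

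In the whole KLF family, 17 genes were in the table and 13 passed the filter on low values (a mean of at least 0.5 FPKM), of which 3 rose, 6 fell and 4 did not pass, against 39.4% higher and 34.9% lower over all genes tested. By mean FPKM, counted from the highest, Klf10 had rank 6 in KLF10AKO and rank 5 in WT. In WT its range of 16.7 to 21.1 FPKM overlapped those of both neighbours, Klf4 above it at 25.5 ± 3.62 FPKM and Klf13 below it at 14.7 ± 1.55 FPKM (SD, n = 4 each). In KLF10AKO the neighbour above, Klf9, did not overlap it, while the neighbour below, Klf16 at 9.24 ± 0.782 FPKM (SD, n = 4), did. Klf11 had rank 9 in KLF10AKO and rank 8 in WT. Its KLF10AKO neighbours Klf15 (8.29 ± 1.67 FPKM) and Klf3 (7.67 ± 0.555 FPKM) both overlapped it (SD, n = 4 each). Its WT neighbours Klf15 (14.0 ± 1.24 FPKM) and Klf3 (7.30 ± 0.114 FPKM) did not (SD, n = 4 each). Klf2, a factor of endothelium and of quiescent lymphocytes, headed the family in KLF10AKO at 145 ± 16.5 FPKM and had rank 3 in WT at 36.1 ± 5.55 FPKM (SD, n = 4 each, log2 change 1.99, limma adjusted p = 1.21e-06). Klf17 had 0 reads in all 8 libraries.

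**Figure D4:**
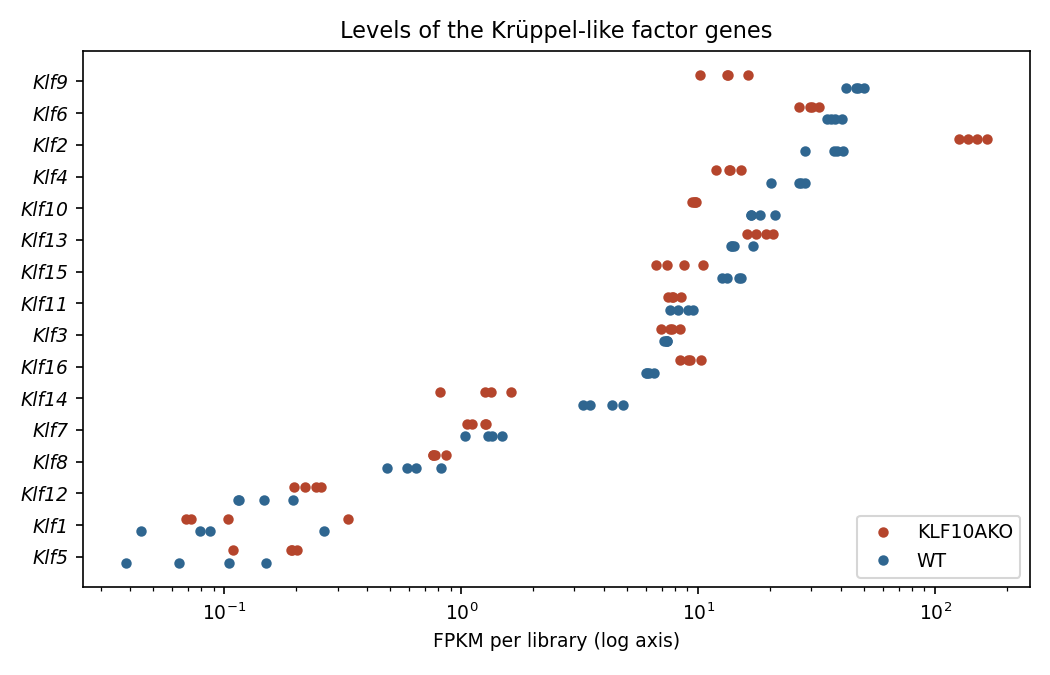
FPKM of the Krüppel-like factor genes in each library on a log axis, ordered by their WT mean, with KLF10AKO points above WT points, Klf17 left out and libraries at 0 not drawn. Klf10 and Klf11 lie in the middle of the family, between 7 and 22 FPKM, while Klf2 rises to 145 FPKM on average in KLF10AKO.

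TGF-β induces both genes, and the pathway's other genes were read by role. Of 31 pathway genes found by symbol, 30 passed the filter, and 6 of these rose, 17 fell and 7 did not pass, against 39.4% higher and 34.9% lower over all genes. Their median log2 change was -0.48, against 0.047 over all genes, and 1.20 when set against the adipocyte markers. Of the 7 tested ligands and latency proteins 6 fell and 1 rose (median -0.85). Ltbp3, which binds latent TGF-β in the matrix, fell to 29.7 ± 5.00 FPKM in KLF10AKO, against 124 ± 5.80 FPKM in WT (SD, n = 4 each, log2 change -2.06, limma adjusted p = 4.66e-07). Ltbp4, a relative of the same role, fell to 22.4 ± 1.07 FPKM in KLF10AKO, against 46.6 ± 3.83 FPKM in WT (SD, n = 4 each, log2 change -1.04, limma adjusted p = 1.59e-06). The gene that rose was the ligand Tgfb1, chosen after its values were seen, at 31.4, 32.6, 29.4 and 35.0 FPKM in KLF10AKO and 13.9, 13.5, 14.0 and 16.4 FPKM in WT (log2 change 1.12, limma adjusted p = 1.99e-06). The Ltbp3 level is uncertain, since its reads can be shared by the counting. Lymphocyte markers rose in the same libraries as Tgfb1, and their part was not tested.

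Among 5 receptors and co-receptors 3 fell and 2 rose (median -0.91), against 39.4% higher and 34.9% lower over all genes tested. The co-receptor betaglycan, Tgfbr3, fell to 13.2 ± 0.452 FPKM in KLF10AKO, against 27.6 ± 2.14 FPKM in WT (SD, n = 4 each, log2 change -1.03, limma adjusted p = 1.10e-06). The endothelial receptor gene Acvrl1 fell to 9.81 ± 0.263 FPKM in KLF10AKO, against 19.5 ± 1.41 FPKM in WT (SD, n = 4 each, log2 change -0.96, limma adjusted p = 1.40e-06). Endothelial markers fell in 3 of 4 genes (102 to 108 FPKM in KLF10AKO, 162 to 187 FPKM in WT), and their part was not tested. The signalling receptor genes Tgfbr2 and Tgfbr1, both chosen after their values were seen, rose by 0.52 (limma adjusted p = 1.42e-04) and 0.21 (limma adjusted p = 0.0189). The Tgfbr1 call was lost without KLF10AKO replicate 2 (limma adjusted p = 0.0526) or without WT replicate 3 (limma adjusted p = 0.0521), leaving 1 receptor higher. With quantile normalization Tgfbr1 stood at 0.0039 (limma adjusted p = 0.960), and with KLF10AKO replicate 4 alone at 0.14 (limma adjusted p = 0.300). Exons of Tgfbr3 and of Acvrl1 each overlap a non-coding gene.

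Of the signal-carrying Smad genes, 0 of 3 passed in the limma fit, against 74.3% of all genes tested. An unadjusted limma p under 0.05 was had by 0 of the 3. Smad3 stood at 9.28, 8.59, 11.6 and 7.22 FPKM in KLF10AKO and at 10.9, 10.3, 9.68 and 11.3 FPKM in WT (log2 change -0.21, limma adjusted p = 0.168). The groups overlapped through KLF10AKO replicate 3, and without that library Smad3 passed at -0.32 (limma adjusted p = 0.0150). With KLF10AKO replicate 4 alone, the library with few muscle transcripts, it passed at -0.51 (limma adjusted p = 0.0131). Smad2 stood at a log2 change of -0.11 (limma adjusted p = 0.184). Quantile normalization called 2 of the 3 lower (Smad2 and Smad3), and voom called Smad4 higher at 0.20 (limma adjusted p = 0.0218).

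Among 7 inhibitors of the pathway 4 fell, 1 rose and 2 did not pass (median -0.39). Over all genes tested, 39.4% were called higher and 34.9% lower. Pmepa1, a TGF-β-induced protein that sequesters Smads, fell to 64.2, 65.3, 67.1 and 63.8 FPKM in KLF10AKO, against 173, 186, 158 and 198 FPKM in WT (log2 change -1.45, limma adjusted p = 4.10e-07). Tgif1, a repressor that binds Smads, rose to 4.78, 5.96, 5.43 and 6.19 FPKM in KLF10AKO, against 1.79, 2.14, 2.08 and 2.71 FPKM in WT (log2 change 1.19, limma adjusted p = 1.81e-05). For both genes the groups lay apart in every library. Smad7, the inhibitory Smad whose promoter KLF10 is reported to repress in cultured cells, was chosen after its values were seen. It stood at 9.50, 9.78, 9.23 and 11.2 FPKM in KLF10AKO and at 7.23, 8.09, 6.32 and 10.6 FPKM in WT, and did not pass (log2 change 0.30, 95% interval -0.014 to 0.62, limma adjusted p = 0.0764). It overlapped through WT replicate 4, the WT library with the highest Klf10. Without WT replicate 4, Smad7 passed at 0.44 (limma adjusted p = 0.00465) and Skil at 0.28 (limma adjusted p = 0.0209), for 3 inhibitors higher. Both also passed with TPM, at 0.52 and 0.42, and with voom, at 0.55 and 0.44. These 2 scalings shifted the median log2 change over all genes by 0.20 and 0.22. With quantile normalization Smad7 did not pass, at 0.14 (limma adjusted p = 0.355). With KLF10AKO replicate 4 alone its log2 change was 0.47.

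Among 8 genes induced by TGF-β in many cells 4 fell, 2 rose and 2 did not pass (median -0.51). The shares over all genes tested were 39.4% higher and 34.9% lower. Fn1, fibronectin, fell to 5.23 ± 0.350 FPKM in KLF10AKO, against 13.3 ± 1.60 FPKM in WT (SD, n = 4 each, log2 change -1.27, limma adjusted p = 2.67e-06). Junb, an immediate early gene, rose to 43.2 ± 3.24 FPKM in KLF10AKO, against 14.5 ± 2.17 FPKM in WT (SD, n = 4 each, log2 change 1.55, limma adjusted p = 1.81e-06). The other gene called higher, the matrix gene Tgfbi at 0.27 (limma adjusted p = 0.0338), lost its call without KLF10AKO replicate 1, 2 or 4 or without WT replicate 1 or 4 (limma adjusted p from 0.0505 to 0.0811), leaving 1. It also lost its call with no filter (limma adjusted p = 0.0564) and with KLF10AKO replicate 4 alone (0.42, limma adjusted p = 0.105). Fibroblast and progenitor markers fell in 4 of 5 genes and rose in 1 (98.2 to 134 FPKM in KLF10AKO, 243 to 275 FPKM in WT), and their part was not tested. Exons of Fn1 overlap an antisense gene, and those of Junb overlap Prdx2.

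**Figure D5:**
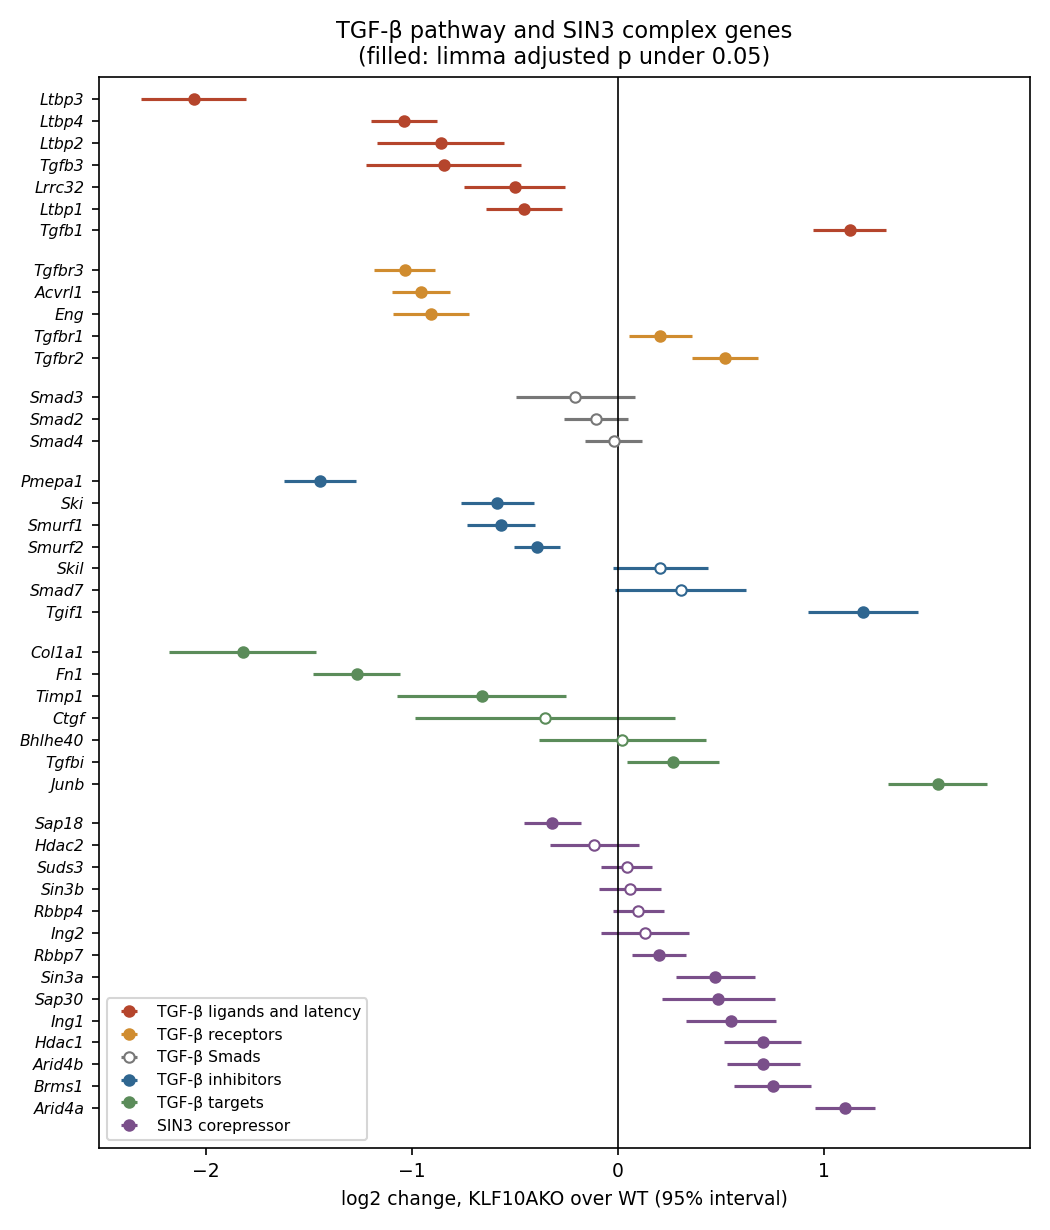
Log2 change (KLF10AKO over WT, limma, bars: 95% interval) of the TGF-β pathway genes by role (1 target not drawn) and of the SIN3 complex genes, filled where the adjusted p is under 0.05. The pathway's genes lie on both sides of 0, from Ltbp3 at -2.06 to Junb at 1.55, while 8 of 14 SIN3 genes are filled to the right of 0.

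The corepressor that both proteins recruit was read through 14 subunit genes, of which 8 rose, 1 fell and 5 did not pass, against 39.4% higher and 34.9% lower over all genes tested (median 0.34, against 0.047 over all genes). Arid4a, a chromatin-binding subunit, rose to 11.9 ± 0.871 FPKM in KLF10AKO, against 5.25 ± 0.120 FPKM in WT (SD, n = 4 each, log2 change 1.10, limma adjusted p = 6.72e-07). Brms1, another subunit, rose to 34.8 ± 3.47 FPKM in KLF10AKO, against 20.4 ± 1.35 FPKM in WT (SD, n = 4 each, log2 change 0.75, limma adjusted p = 3.53e-05). The deacetylase gene Hdac1 and the scaffold gene Sin3a, both chosen after their values were seen, rose by 0.70 (limma adjusted p = 5.19e-05) and 0.47 (limma adjusted p = 7.68e-04). The gene that fell was Sap18, at -0.32 (limma adjusted p = 0.00132), a call that TPM and voom did not make. Over all 16012 genes tested, TPM called 7041 higher and 4071 lower, voom 7404 and 4409, and quantile normalization 4947 and 7067. Of the 14 subunits, TPM called 11 higher and 0 lower, voom 12 higher and 0 lower, and quantile normalization 7 higher and 3 lower. When KLF10AKO replicate 4 alone stood for its group, 6 were higher and 1 lower. Brms1 and Sin3a overlap exons of other annotated genes.

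Genes reported elsewhere as targets of KLF10 or KLF11 were called in numbers near the background. Of 9 listed genes 7 passed the filter, and 2 of them rose, 3 fell and 2 did not pass (median 0.096), against 39.4% higher and 34.9% lower over all genes tested. With TPM and with voom 4 were higher and 3 lower (medians 0.30 and 0.32), as Smad7 and Foxo1 then passed. Over all 16012 genes tested, TPM called 7041 higher and 4071 lower, and voom 7404 and 4409. At a minimum of 2 FPKM, where Foxp3 drops out, 1 of the listed genes was higher. Smad7 also passed without WT replicate 4 (limma adjusted p = 0.00465), for 3 higher. Pck1, the enzyme of glyceroneogenesis in fat, which KLF10 represses in mouse hepatocytes, fell to 420, 419, 469 and 387 FPKM in KLF10AKO, against 1117, 1254, 1090 and 1173 FPKM in WT (log2 change -1.45, limma adjusted p = 1.32e-06). Foxp3, the regulatory T cell factor that KLF10 activates in T cells, rose to 3.25, 3.46, 3.05 and 3.71 FPKM in KLF10AKO, against 0.0336, 0.0151, 0.0334 and 0.102 FPKM in WT (log2 change 2.82, limma adjusted p = 5.32e-08). Foxp3 passed the filter only through its KLF10AKO level, and its log2 change follows the pseudocount, at 2.06 with 1 and 4.60 with 0.1, and was 4.14 with TPM and 6.44 with voom. The groups were apart for both genes. Pck1 moved with the adipocyte markers, lying 0.23 above them on the log2 scale. Foxp3 rose, as did the T cell markers, whose median log2 change was larger, at 5.03 in the same fit. The part of either cell type was not tested. Exons of Foxp3 overlap 4 other genes. Tnfrsf11b and Ucp1 were below the filter.

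The genes most like the members in pattern were sought among 7494 protein-coding genes with a mean of at least 5 FPKM. The measure was the mean absolute difference between 2 profiles of log2(FPKM + 0.5) over the 8 libraries, each centred on its WT mean. Closest to Klf10 were Pik3r1 (0.0335), Sema3f (0.0404), Gpr4 (0.0443), Secisbp2l (0.0483) and Pkn3 (0.0488). Pik3r1, the regulatory subunit of phosphoinositide 3-kinase, stood at 10.8, 10.9, 10.5 and 10.2 FPKM in KLF10AKO and at 18.5, 20.5, 18.2 and 22.7 FPKM in WT. As with Klf10, the KLF10AKO libraries lay close together and WT replicate 4 was the highest, which follows from its choice by likeness in these values. Closest to Klf11 were Paip2b (0.0341), Pdcd6 (0.0353), Ntpcr (0.0390), Fis1 (0.0399) and Nars (0.0413). These 5 were likewise chosen for their likeness to Klf11 in these values. Their changes did not pass and, as for Klf11, turned positive with TPM and voom, which also raised the median log2 change over all genes. With quantile normalization Paip2b (-0.34, limma adjusted p = 0.00145) and Ntpcr (-0.38, limma adjusted p = 0.00134) passed as lower. Without WT replicate 4 Paip2b, Ntpcr and Fis1 passed as lower, at -0.19, -0.21 and -0.16 (limma adjusted p = 0.0167, 0.0279 and 0.0442). Profiles within 0.1 of the member's were had by 122 genes (1.63%) for Klf10 and by 411 genes (5.48%) for Klf11. Exons of Pkn3 overlap Zdhhc12.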

How the data were processed

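Messenger RNA of 8 iWAT libraries, 4 KLF10AKO and 4 WT, was poly(A)-selected, per the labels' protocols. Per the submitters' processing notes, the tools were HISAT2 2.0.5, edgeR 3.22.5 and featureCounts 1.5.0-p3, with the mm10 build. The sources used here do not give the tools' roles, the annotation or whether counting used strand. The deposited table holds FPKM as the authors computed them, beside each gene's length. FPKM times length gave whole reads for 100% of values above 0 (within 0.01 of a read), 15537863 to 17499132 per library.

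From these, limma 3.58.1 in R 4.3.3 (lmFit, trended eBayes) modelled log2(FPKM + 0.5) of 16012 genes with a mean of at least 0.5 FPKM, with no covariate. This scale understates changes of low genes. P-values were two-sided, adjusted by Benjamini-Hochberg over all genes, threshold 0.05. Ratios and sums of FPKM took no pseudocount and exact permutation tests. With no animal named for a library, a p-value measures only how these libraries vary, which may be technical.

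The members, lists and tests were chosen with earlier results of these data known. Named genes were Klf10, Klf11, Adipoq, Plin4, the SIN3-recruiting KLFs, up to 2 genes of lowest p in each pathway or target list, and the 5 nearest patterns of each member. Others, such as Cfd, Klf2, Klf3, Klf4, Klf15, Sap18, Smad4, Skil, Foxo1 and markers at 0, were chosen after their values were seen. Of 40 genes tabulated, 10 overlap exons of another gene and are uncertain to that extent. Sequences and gene models are from GENCODE M21. A gene of the TGF-β target list enters the counts but is not reported here. The fit was tested on simulated data in which most genes did not change. That test therefore does not bear on the choice of scaling. Reads carry no molecular identifiers, so Poisson intervals cover counting error only, and a count of 0 allows up to 3 reads in a library.

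Other settings tried were a pseudocount of 1 or 0.1, no filter on level, a minimum of 2 FPKM, TPM, quantile normalization, robust eBayes, a block for replicate number, voom on recovered reads, leaving out each library, KLF10AKO replicate 4 alone (assumed to vary like WT) and the median of the adipocyte markers.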

Additional observations from a re-analysis of the deposited data

Results flagged for a closer look

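In 96 groups of 4 values, a library was looked for whose gap to the nearest of the others, as a share of the group's range, exceeded Dixon's critical value at 95%, which chance alone exceeds in about 1 in 20 groups, and 6 did. Klf13 in WT had a share of 0.896, from replicate 4 at 17.0 FPKM, and Tgfb1 in WT had 0.845, from replicate 4 at 16.4 FPKM. Smad2 in KLF10AKO had 0.846, from replicate 1 at 9.09 FPKM, and Sin3a in WT had 0.848, from replicate 1 at 8.28 FPKM. The ratio of Klf11 to Adipoq had 0.881 in WT, from replicate 2 at a log2 ratio of -7.79, and the ratio of Klf11 to Plin4 had 0.859 in KLF10AKO, from replicate 3 at -5.35. Neither library of these ratios brought its group into the range of the other.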

How the results depend on the processing

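Klf10 remained lower in KLF10AKO and past the threshold under every alternative, from -0.99 (quantile normalization) to -0.69 (voom), and from -0.92 to -0.81 with 1 library left out. Klf11 changed sign with TPM (0.082) and voom (0.094) and passed with quantile normalization at -0.29, while these scalings also moved the median gene, as given above. With 1 library left out Klf11 lay between -0.17 and -0.071 (limma adjusted p from 0.0633 to 0.415). The ratio of Klf10 to Adipoq was 0.80 without KLF10AKO replicate 4 (exact permutation p = 0.0571), with the groups still apart. Its values with 1 library left out ranged from 0.80 to 1.02. Signs of small changes also turned with TPM for Smad2 (0.095), Paip2b (0.057), Pdcd6 (0.14), Ntpcr (0.030), Fis1 (0.088) and Nars (0.067), and with voom for Smad3 (0.0051), Smad2 (0.11), Paip2b (0.070), Pdcd6 (0.15), Ntpcr (0.040), Fis1 (0.10) and Nars (0.079), and with quantile normalization for Fis1 (0.067). The cause was not tested. The share of passing genes that were higher was 53.0%, against 63.4% with TPM, 62.7% with voom and 41.2% with quantile normalization. Between 11298 and 11862 genes passed with 1 library left out and 9944 with KLF10AKO replicate 4 alone.

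With the replicate number as a block, Klf10 stood at -0.88 (limma adjusted p = 1.74e-04), Klf11 at -0.12 (limma adjusted p = 0.188) and 11726 genes passed. In that fit Smad7 (0.30, limma adjusted p = 0.0193) and Skil (0.21, limma adjusted p = 0.0472) passed and Tgfbi did not (limma adjusted p = 0.0803). Same-numbered libraries did not deviate together over all genes (correlations of 0.00300 to 0.0310). Libraries of unlike number were not compared in this way, so this does not settle whether the numbers pair them. The limits are 4 libraries per group, pooled cell types, values over whole genes and an unknown strand setting.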

Other observations

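WT replicate 4, the WT library with the highest Klf10 (21.1 FPKM), had the lowest Klf11 (7.62 FPKM). Of the 4 WT libraries it was the highest for 7 of 7 TGF-β inhibitors (Smad7, Smurf1, Smurf2, Ski, Skil, Tgif1 and Pmepa1) and for 4 of 8 TGF-β-induced genes. Over all genes tested it was the highest WT library for 4662 of 16012 (29.1%). This was noticed after the values were seen, in 1 library, and was not tested. Of the remaining marker lists, macrophage markers fell in 3 of 5 genes (153 to 182 FPKM in KLF10AKO, 201 to 222 FPKM in WT), smooth muscle markers in 2 of 3 tested genes (102 to 127 FPKM in KLF10AKO, 421 to 644 FPKM in WT) and Schwann cell markers in 2 of 3 genes (4.98 to 6.28 FPKM in KLF10AKO, 18.9 to 25.8 FPKM in WT). Beside these counts, 34.9% of all genes tested were called lower and 39.4% higher. The epithelium list had 1 tested gene, Epcam, which rose and passed the filter only through its KLF10AKO level (list sum 1.08 to 1.98 FPKM in KLF10AKO, 0.416 to 1.30 FPKM in WT). Krt8 and Krt18, below the filter, went the other way. Their means were 0.0202 and 0.131 FPKM in KLF10AKO, against 0.326 and 0.557 FPKM in WT.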
